A study of Mus musculus with 16 samples.

Results

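The genes described here are the nuclear genes of oxidative phosphorylation in mouse liver. They were taken as every protein-coding row whose symbol begins with Nduf, Uqcr, Atp5 or Cox4 to Cox8, together with Sdha, Sdhb, Sdhc, Sdhd, Cyc1 and Cycs. The rule gave 95 of the 21397 protein-coding genes among 35275 gene IDs: 36 of complex I, 8 Ndufaf assembly factors of complex I, 4 of complex II, 9 of complex III, 20 of complex IV (Ndufa4 and Ndufa4l2 included), 17 of complex V, and cytochrome c. A further 11 rows with such symbols were processed pseudogenes and were left out. Of the 95 genes, 89 reached 1 FPKM (fragments per kilobase of gene length, scaled to library depth) in at least 4 libraries and were tested. The other 6 were Ndufb2 of complex I and Cox4i2, Cox6a2, Cox7b2, Cox8b and Cox8c of complex IV.

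The libraries came from total liver RNA of wild-type mice (WT) and of mice labelled L1 LKO, which the series title ties to ZFP36L1. Each genotype was fed either a control diet or an ethanol diet, which gave 4 groups of 4 libraries. The driver of the deletion, and the strain, sex, age and feeding scheme, were not given in the sources used here. Zfp36l1 itself ranged from 9.3 to 25.5 FPKM over the WT libraries and from 0.572 to 1.76 FPKM over the LKO libraries, without overlap. The labels do not say that each library is a separate animal, so the p-values measure the spread between libraries. RNA of whole liver cannot tell fewer cells of a type from less RNA per cell.

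In the inner mitochondrial membrane, complexes I and II pass electrons from NADH and succinate to ubiquinone, complex III passes them on to cytochrome c, and complex IV passes them to oxygen. Proton pumping by complexes I, III and IV drives ATP synthesis by complex V. Liver is rich in mitochondria, and most subunits are encoded in the nucleus while a small core set is encoded by the mitochondrial genome. Several subunits of complex IV exist as isoforms of separate genes that differ between tissues.

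Promoters of such genes are known for sites of nuclear respiratory factor 1 (NRF1) and of ETS family factors, so the windows from 250 bases before to 50 bases after the RefSeq starts were searched on both strands (GRCm38.p6, 75 of the 95 genes matched by symbol). The NRF1 letters (GCGC, then any base, then TGCGC) stood in 19 of 75 genes (25.3%), against 5.19% of 27025 genes with a window. The ETS letters CCGGAAG stood in 18 (24%) against 9.93%, the YY1 letters AAGATGGC in 10 (13.3%) against 3.19%, and the letters TCAAGGTCA of estrogen-related receptors in 2 (2.67%) against 0.466%. A match describes letters only. The windows below are shown for Ndufs5 and Ndufa8, complex I subunits with a match whose genotype differences are described further on. Sdha, of complex II, is shown because it holds 3 matches. No NRF1 match was found for Ndufb10, another complex I subunit whose genotype difference is described. Neither Ndufs5 nor Ndufa8 was called between genotypes with all 16 libraries, and a link between letters and genotype was not tested. Capitals mark the NRF1 letters on either strand, and each line runs 5′ to 3′ on the gene's own strand, which is minus for these 3 genes.
Ndufs5, chr4:123718265-123718294: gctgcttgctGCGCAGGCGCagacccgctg
Ndufa8, chr2:36049349-36049378: ctagagcagtGCGCTTGCGCgtcgctggag
Sdha, window A, chr13:74350231-74350260: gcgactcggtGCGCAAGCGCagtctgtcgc
Sdha, window B, chr13:74350276-74350305: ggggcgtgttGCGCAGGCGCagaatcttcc
Sdha, window C, chr13:74350319-74350348: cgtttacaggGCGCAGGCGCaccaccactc

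WT ethanol library 2 stood apart from the other 15 libraries, and every result is given with and without it where it matters. It held 9890384 reads, against 19069727 to 24768340 in the others. The 95 genes took 2.68% of its reads, against 1.15 to 1.58% elsewhere, and the genes of the mitochondrial genome took 22.5%, against 3.64 to 6.97%. Of the 89 tested genes, 41 lay above the range of the other 15 libraries, 27 below it and 21 within it. Against the mean of the other 3 WT ethanol libraries, 54 of 89 genes (60.7%) differed by more than 2-fold on the log2(FPKM + 1) scale, as did 51.5% of all 11298 genes tested. When each of the other libraries was set against its own group in the same way, 0 to 5 genes did so.

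The deviations of that library went in both directions within every complex that has at least 8 genes. Ndufa2, an accessory subunit of complex I, measured 3198 FPKM there, against 251, 150 and 181 FPKM in WT ethanol libraries 1, 3 and 4. Atp5e, the epsilon subunit of complex V, measured 1760 FPKM against 80.5, 107 and 123. In the opposite direction, Sdhd, a membrane anchor of complex II, measured 11.4 FPKM against 211, 159 and 142, and Uqcrc2, a core protein of complex III, measured 11.4 against 149, 110 and 108. Complex I had 20 of 35 tested genes above and 10 below the range of the other 15 libraries, complex V had 8 of 17 above and 4 below, and complex II had 0 of 4 above and 3 below. The deviations of the 89 genes had a Spearman rho of 0.37 with the GC content of the longest GENCODE M21 transcript and of -0.16 with gene length, as a description over genes of 1 library. Genes above the range had a median GC content of 52.1% and genes below it 48.4%. Summed FPKM of 5 red cell markers was 2160 in this library against 100.3 to 286 in the other 3 of its group, of 6 cholangiocyte markers 77.6 against 14.1 to 21.5, of 6 endothelial markers 12.1 against 53.9 to 84.1, and of 6 stellate cell and fibroblast markers 16.3 against 112 to 164. The sum of 6 macrophage and Kupffer cell markers was 84.0 against 143 to 281, and that of 6 markers of T, B and natural killer cells 4.17 against 0.981 to 2.09. Their part in the values of the 95 genes was not tested.

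**Figure D1:**
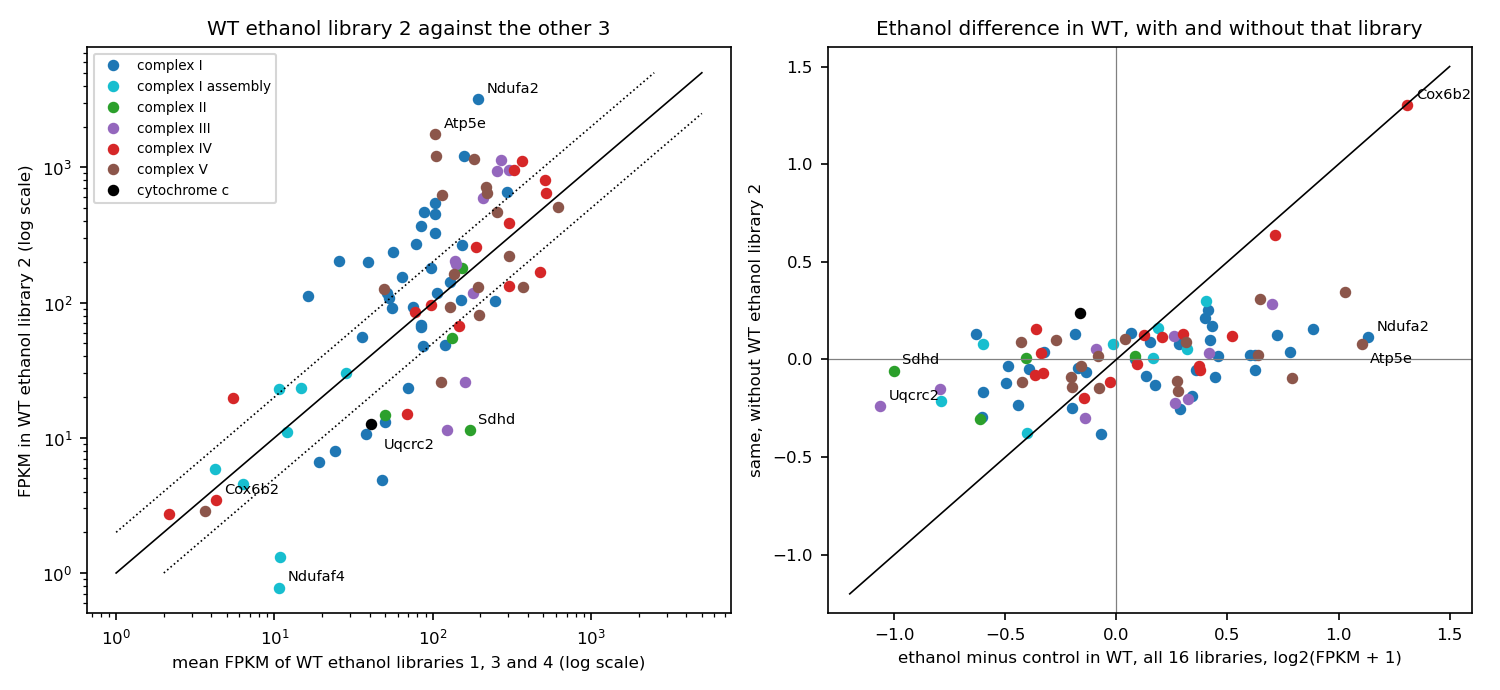
Left: FPKM of the 89 tested genes in WT ethanol library 2 (y axis, log scale) against the mean of the other 3 WT ethanol libraries (x axis, log scale), coloured by complex, with the line of equality and dotted lines at 2-fold. Right: ethanol minus control difference in WT on the log2(FPKM + 1) scale with all 16 libraries (x axis) and without that library (y axis). Ndufa2 and Atp5e lie far above the line on the left, Sdhd and Uqcrc2 far below, and on the right the values without the library lie close to 0 for most genes, while Cox6b2 keeps its value.

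FPKM is scaled to gene length but not to GC content or to the share of a gene's reads that can be assigned. The ranks between genes given here are thus ranks of FPKM only. Over the 15 other libraries, the highest mean was that of Atp5b, the catalytic beta subunit of complex V, at 644 FPKM (range 495 to 737). Cox6a1 (537), Ndufa4 (535), Cox8a (508) and Cox6b1 (386) of complex IV followed. In complex I the highest was Ndufb9, an accessory subunit, at 320 FPKM, and in complex III it was Uqcr11, a small subunit, at 297 FPKM. In complex II Sdhd (191), Sdhb with its iron-sulphur clusters (164) and the flavoprotein Sdha (147) lay close together and Sdhc, the other anchor, lay lower at 49.7 FPKM. The assembly factors of complex I were the lowest group, from 3.22 FPKM for Ndufaf5 to 27.1 for Ndufaf8. Cycs, which encodes cytochrome c, measured 42.6 FPKM.

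The 3 tested genes with the lowest coefficient of variation over the 15 libraries were Ndufs3, Ndufs7 and Cyc1, which encode core subunits of complexes I and III. Ndufs3 of the peripheral arm of complex I ranged from 90.2 to 114 FPKM over the 15 libraries, a ratio of highest to lowest of 1.27. The ratio was 1.35 for Ndufs7, which carries an iron-sulphur cluster near the ubiquinone site, 1.42 for Ndufv1, which binds NADH, and 1.36 for Cyc1, the cytochrome c1 of complex III. For Sdhd (2.02), Ndufs8 (2.07) and Uqcrc1 (2.4), the other core protein of complex III, it was higher. The median standard deviation (SD) within groups on the log2(FPKM + 1) scale was 0.29 for the 83 genes with a mean of at least 10 FPKM, against 0.32 for the 3974 tested genes at that level.

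Sums over the complexes differed little between groups once WT ethanol library 2 was set aside. Complex I summed to 3281 ± 411 FPKM in WT control, 3183 ± 342 in WT ethanol (SD, n = 3), 3533 ± 605 in LKO control and 3356 ± 381 in LKO ethanol (SD, n = 4 for the other groups). Complex V summed to 3239 ± 252, 3307 ± 30.9, 3516 ± 327 and 3436 ± 193 FPKM in the same order, and complex IV to 3347 ± 327, 3393 ± 303, 3798 ± 615 and 3608 ± 452. For these 3 complexes the ranges of the groups overlapped. The complex II sums were 487 to 644 FPKM in WT control, 477 to 528 in WT ethanol, 540 to 647 in LKO control and 520 to 592 in LKO ethanol, so that WT ethanol lay below LKO control without overlap, a pair that differs in both genotype and diet. Within the summed FPKM of all 95 genes, complex I took 25.1 to 27.5%, complex III 13.6 to 16%, complex IV 26.2 to 28.9% and complex V 24.4 to 28.2% over the 15 libraries. In WT ethanol library 2 these shares were 36.7%, 15.2%, 17.4% and 29.3%, and complex II took 0.952% against 3.81 to 4.99%.

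**Figure D2:**
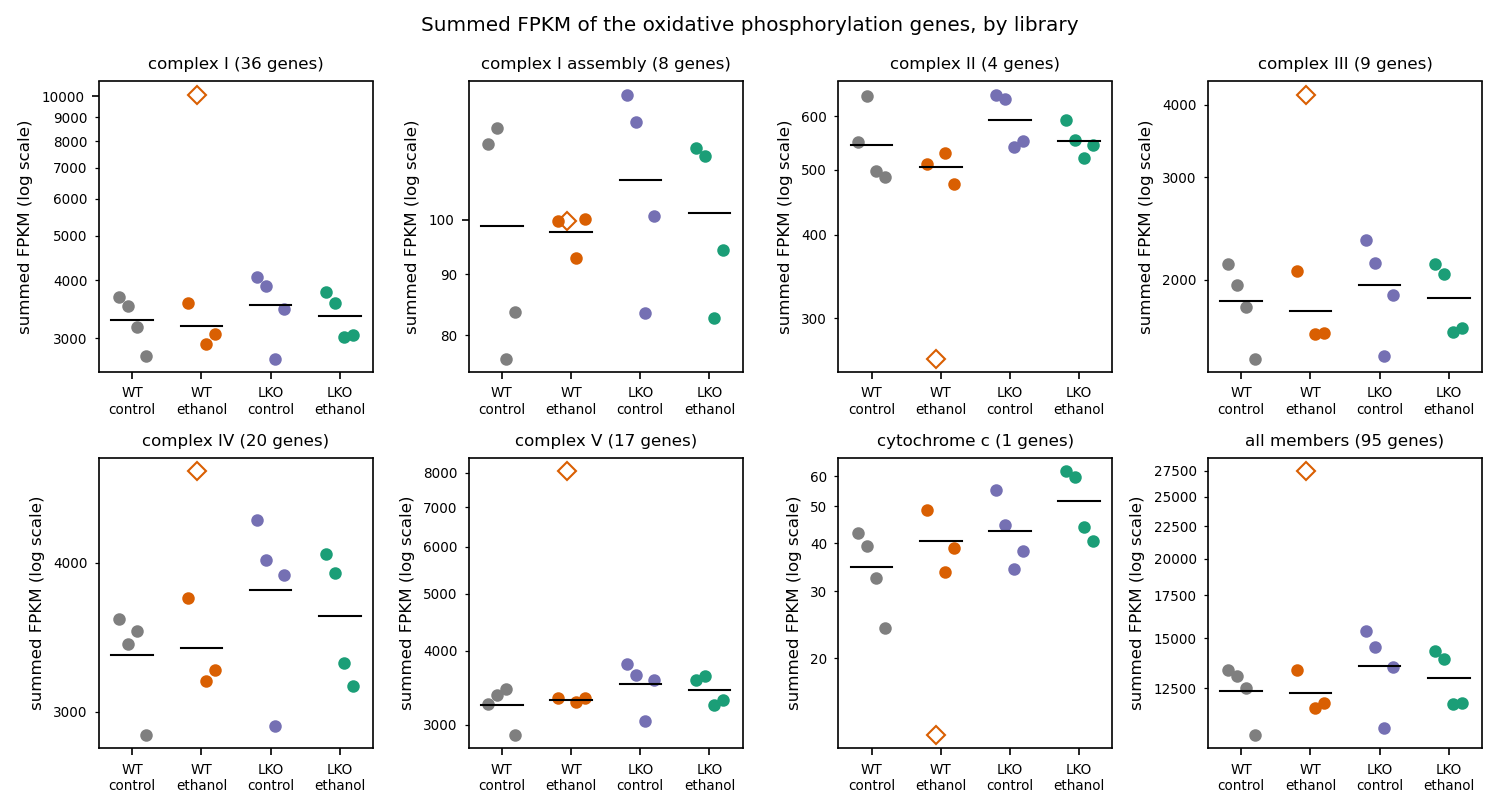
Summed FPKM (y axes, log scale, not starting at 0) of the genes of each complex and of all 95 genes in each of the 16 libraries, with bars at the group means without WT ethanol library 2 (open diamond). All 95 genes sum to 10557 to 15389 FPKM in the filled points and to 27436 FPKM in the diamond.

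Within groups, libraries 1 and 2 differed from libraries 3 and 4. The first component of variation within groups over all genes carried 40.0% of that variance over the 15 libraries and placed libraries 1 and 2 of each group on one side and 3 and 4 on the other. The labels name no batch. Of the 89 tested genes, 63 were lower and 26 higher in libraries 3 and 4, with a median of -0.36 on the log2(FPKM + 1) scale, from -0.73 for Uqcrb, a subunit of complex III, to 0.90 for Ndufa10, an accessory subunit of complex I. Ndufa10 measured 28.6, 38.9, 65.7 and 54.2 FPKM in WT control libraries 1 to 4, and 39.4, 38.2, 62.7 and 75 in LKO control. Uqcrb measured 196, 176, 151 and 124 FPKM in WT control, and 217, 179, 96.7 and 149 in LKO control. In both genes libraries 1 and 2 did not overlap libraries 3 and 4 in either group. Against GC content, the deviations of the 89 genes from their group had a rho of -0.31 to 0.002 in libraries 1 and 2 and of -0.016 to 0.28 in libraries 3 and 4. Over all genes with a GC value it was -0.43 to -0.13 and 0.14 to 0.38.

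**Figure D3:**
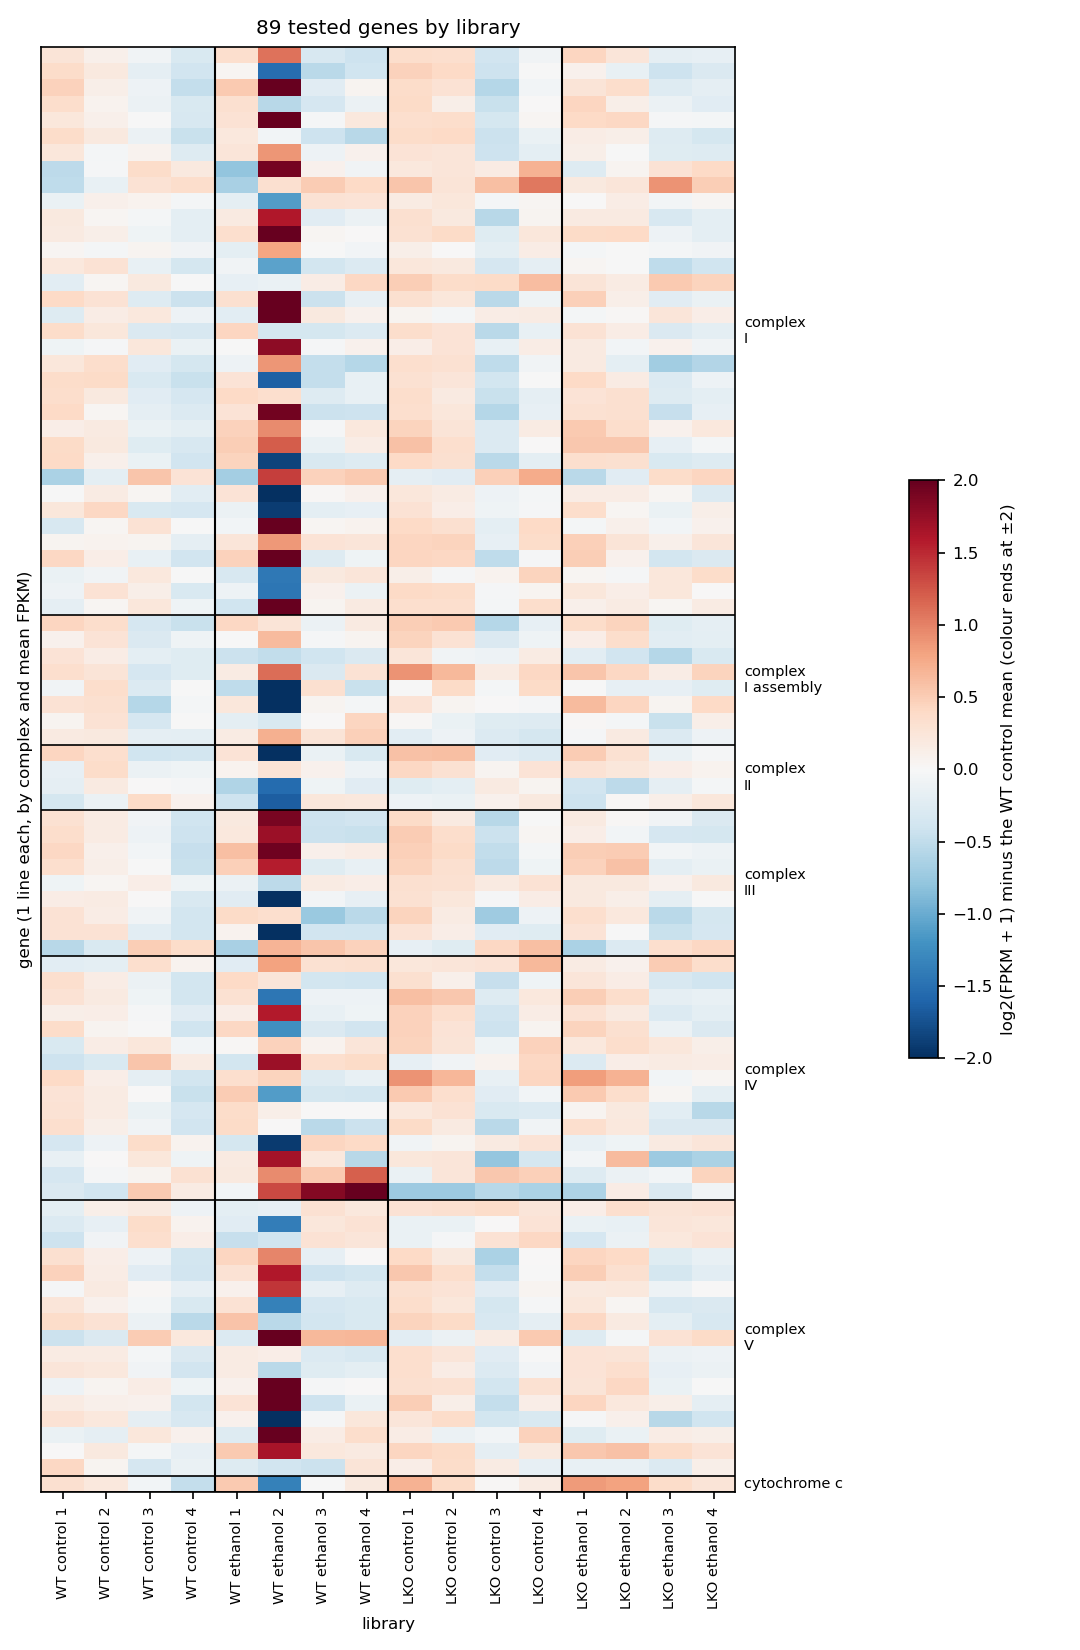
Level of each of the 89 tested genes (1 line each, ordered by complex and mean) in each of the 16 libraries (columns, in groups of 4), as log2(FPKM + 1) minus the mean of the WT control libraries. Blue is lower and red higher, WT ethanol library 2 stands out in both colours, and many genes are redder in libraries 1 and 2 than in 3 and 4 of the same group.

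For ethanol in WT, limma called 1 of the 89 genes, Cox6b2, as higher at an adjusted p under 0.05, and none as lower. Cox6b2 passed the filter only through 4 WT libraries where it is high, 3 of them WT ethanol, and its call was lost in 17 of 28 alternatives, so the call describes these libraries and is no support for a rise. Over all 11298 genes tested, 4.18% were called and 2.58% were called as higher. At an unadjusted p under 0.05 there were 4 of 89 genes, against 19.7% of all genes, and voom on whole reads called 0 of 89, against 3.01% of all genes. The median difference of the 89 genes was 0.12 on the log2(FPKM + 1) scale, against -0.02 over all genes. Without WT ethanol library 2 it was 0.02 against 0.17, 1 of 89 genes was again called, against 9.48% of all genes, and 87 of 89 genes had a 95% interval of the difference within 2-fold in both directions. By complex, the medians without that library were 0.001 for complex I, -0.02 for complex II, -0.15 for complex III, 0.03 for complex IV and 0.02 for complex V.

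The large differences of Ndufa2, Atp5e, Sdhd and Uqcrc2 in this comparison rested largely on that 1 library. Ndufa2 differed by 1.13 (SE 0.67, limma adjusted p = 0.371) with it and by 0.11 without it. Atp5e moved from 1.10 to 0.08, Sdhd from -1.0 to -0.06 and Uqcrc2 from -1.06 to -0.24. None of these 4 genes passed the test in either fit. Groups that do not overlap were found for 2 of the 89 genes, against 10.1% of all genes. These were Ndufc1, a small subunit of complex I, which was higher on ethanol, as were 5.62% of all genes, and Ndufaf1, which was lower, as were 4.45% of all genes.

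In LKO, ethanol changed 0 of 89 genes by limma, where 0.425% of all genes were called. At an unadjusted p under 0.05 there was 1 of 89 genes, Ndufaf1, against 9.19% of all genes, and voom called 0, against 0.434%. The median difference was -0.04, against 0.06 over all genes, and the 89 genes spanned only -0.43 to 0.46. Of the 4 complex II genes all 4 were below 0, and of the 17 complex V genes 12 were below 0, but each by less than its interval. Most complex III genes were below 0 as well, with Uqcr10 and Uqcrh above. Without WT ethanol library 2, 88 of 89 intervals lay within 2-fold, Cox6b2 being the exception. Groups did not overlap for 1 gene, Ndufaf1, which was lower, against 12.3% of all genes in either direction and 4.14% lower.

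On control food, LKO and WT differed in 0 of 89 genes by limma, where 0.00885% of all genes were called. None of the 89 genes reached an unadjusted p under 0.05, against 3.45% of all genes, and voom called 0, against 0.00885%. The median was 0.09, against -0.10 over all genes, and 70 of 89 genes were above 0, against 3704 of 11298. The signs are not independent, since the libraries share their depth and composition. Leaving out WT control library 4 brought the median to -0.003. Groups did not overlap for 4 genes, against 9.25% of all genes. Ndufs5, Cyc1 and Atp5b were higher in LKO, as were 1.61% of all genes. Cox6b2 was lower, as were 7.64%, but it was tested only through WT libraries where it is high. On the ethanol diet limma called 0 of 89 genes, where 0.0797% of all genes were called. At an unadjusted p under 0.05 there were 4 of 89 genes, against 11.9% of all genes. Voom called 0 there too, against 0.0443%. The median was -0.05, against -0.03 over all genes, and without WT ethanol library 2 it was 0.06, against -0.23. No gene had groups apart on this diet, against 2.69% of all genes.

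The difference between the ethanol responses of the genotypes was tested as an interaction, for which limma called 0 of 89 genes and 0% of all genes. Ndufa4l2 alone had an unadjusted p under 0.05, against 3.20% of all genes. Averaged over both genotypes, limma called Cox6b2 as higher on ethanol and no other of the 89 genes, where 7.78% of all genes were called and 4.59% were called as higher. The same limit of the filter holds for this call, which was lost in 15 of 28 alternatives. Averaged over both diets, the genotypes differed in 0 of 89 genes, where 0.142% of all genes were called, and 5 of 89 had an unadjusted p under 0.05, against 10.4% of all genes. Without WT ethanol library 2, limma called 0 of 89 genes for ethanol in LKO (3.62% of all genes), between genotypes on the control diet (0.0443%) and on ethanol (0.221%), for the interaction (0%), and for genotype averaged over diets (1.07%). For ethanol averaged over genotypes it called 2, Cox6b2 and Ndufaf1, against 20.5% of all genes.

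**Figure D4:**
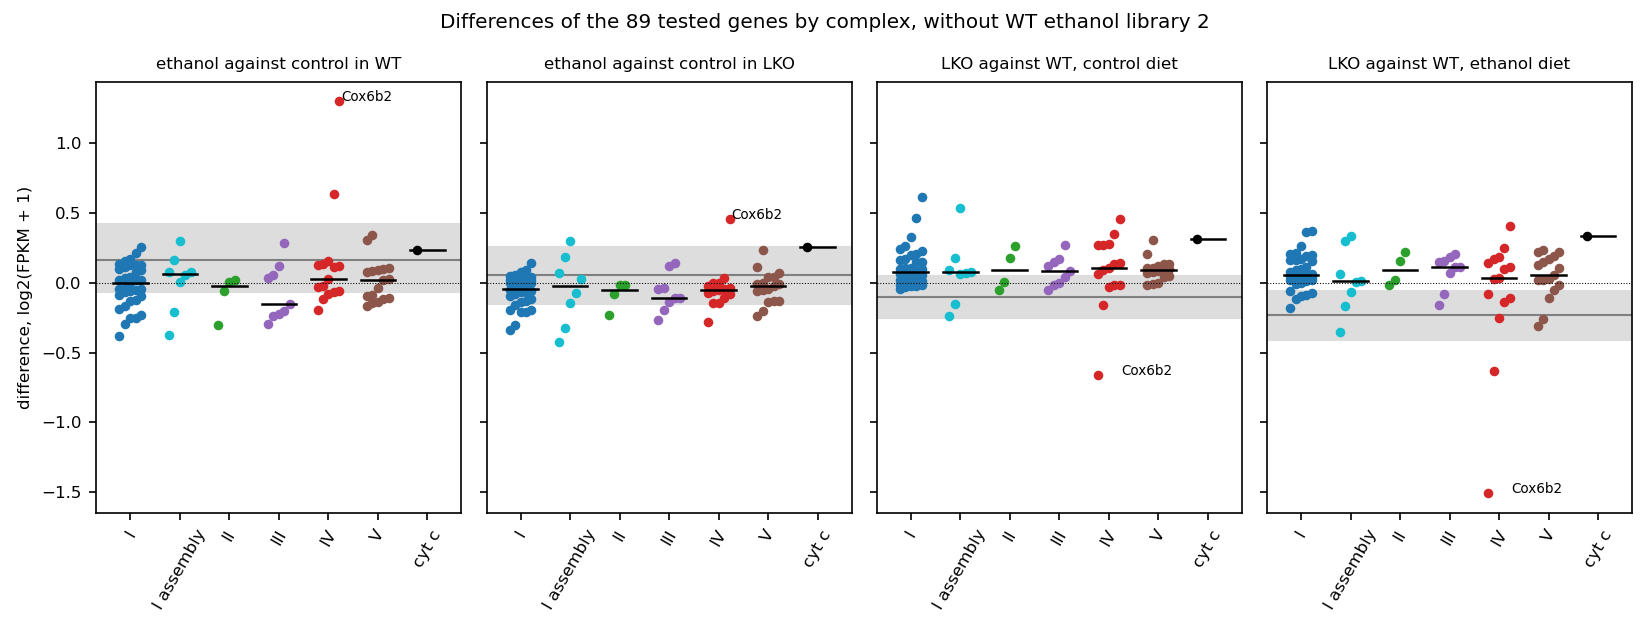
Differences of the 89 tested genes on the log2(FPKM + 1) scale (y axis) by complex (x axis) in the 4 comparisons, without WT ethanol library 2, with bars at the median of each complex. The grey band is the middle of all 11298 genes tested (lower to upper quartile) and the grey line their median, and Cox6b2 lies far from the other genes of complex IV for ethanol in WT and for LKO against WT on ethanol.

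Cox6b2 encodes an isoform of a small subunit of complex IV that is known from testis, and Cox6b1 encodes the form of most tissues. Cox6b2 (ENSMUSG00000051811, chromosome 7, 4751792 to 4753094, minus strand, GRCm38) measured 0.448, 0.358, 1.54 and 0.984 FPKM in WT control and 0.703, 3.46, 5.35 and 6.78 FPKM in WT ethanol. The LKO control libraries held 0.0751, 0.0711, 0.211 and 0.143 FPKM, and the LKO ethanol libraries 0.16, 0.972, 0.457 and 0.69 FPKM. All LKO control libraries lay below all WT control libraries, LKO ethanol library 1 fell within the LKO control range, and WT ethanol libraries 2, 3 and 4 were the highest of all 16. WT ethanol library 1 fell within the range of WT control.

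The ethanol difference of Cox6b2 in WT was 1.31 on the log2(FPKM + 1) scale (SE 0.35, limma adjusted p = 0.0446), and averaged over the genotypes it was 0.88 (SE 0.25, limma adjusted p = 0.0373). In LKO it was 0.46 (95% interval -0.31 to 1.22 without WT ethanol library 2). LKO lay below WT on the ethanol diet by a difference of -1.51 (SE 0.35, limma adjusted p = 0.144), which did not pass the test. On the control diet it lay below by -0.66. No LKO library reached 1 FPKM, so the gene was tested only through WT libraries where it is high, and these genotype differences only describe the libraries. The difference between the 2 ethanol responses, -0.85 without WT ethanol library 2, did not pass the test either (limma adjusted p = 0.968).

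Markers of stellate cells and fibroblasts were also high in some of these libraries. Des measured 0.866 to 1.45 FPKM in WT control and 1.58, 5.08, 3.29 and 3.32 in WT ethanol, and Col1a1 measured 0.106 to 1.83 in WT control and 0.416, 0.546, 7.01 and 12.4 in WT ethanol. Of the 6 markers, 4 (Des, Col1a1, Col3a1 and Dcn) were higher in WT ethanol libraries 3 and 4 than in every WT control library, and none was at 0. In WT ethanol library 2, by contrast, Dcn (4.56 FPKM), Col3a1 (0.309) and Lrat (1.06) lay below the range of the other 15 libraries. The sum of the 6 was 38.2 to 126 FPKM in WT control, 16.3 to 164 in WT ethanol, 43.9 to 121 in LKO control and 84.0 to 119 in LKO ethanol. Sox9, a cholangiocyte marker, measured 0.375 to 0.834 FPKM in WT control and 0.646, 2.40, 1.36 and 3.01 in WT ethanol. For Lyve1 of endothelium the values were 2.35 to 3.89 and 17.1, 1.36, 18.0 and 38.3. For Cd68 of macrophages they were 5.14 to 6.57 and 14.9, 5.01, 16.1 and 26.2. Clec4g went the other way, at 19.4 to 49.9 and 17.4, 2.87, 17.5 and 12.5. In LKO ethanol Sox9 measured 0.677 to 2.26 and Lyve1 9.65 to 40.6. The part of these markers in the Cox6b2 values was not tested.

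The Cox6b2 values rest on few reads. It passed the filter of 1 FPKM in 4 libraries with exactly 4, WT control library 3 and WT ethanol libraries 2, 3 and 4, and no LKO library reached 1 FPKM. The gene was thus tested only through the groups where it is high, and its differences describe these libraries. The libraries held 5, 5, 22 and 12 reads of Cox6b2 in WT control, 8, 20, 76 and 79 in WT ethanol, 1, 1, 3 and 2 in LKO control and 2, 12, 6 and 10 in LKO ethanol. The call in WT was lost when any 1 of 12 of the 16 libraries was left out, over which the adjusted p of the limma fit ranged from 0.00125 to 0.138 and the difference from 1.04 to 1.77. The 12 were WT control libraries 1, 2 and 4, WT ethanol libraries 3 and 4, all 4 LKO control libraries and LKO ethanol libraries 1, 3 and 4. The call averaged over genotypes was likewise lost in 12 of these 16 fits. Within libraries 3 and 4 the WT difference was 1.65, and within libraries 1 and 2, without WT ethanol library 2, it was 0.28.

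Cox6b1 was present at 285 to 512 FPKM in the 15 libraries, so its level was far above that of Cox6b2 in every library. It measured 406, 407, 365 and 320 FPKM in WT control and 410, 335 and 353 in WT ethanol libraries 1, 3 and 4, which overlap. The stretches from 250 to 51 bases before the RefSeq starts of both genes are shown to set the promoter of the low isoform beside that of the abundant one. Capitals mark the CCAAT letters and the GC box letters GGGCGG, each on either strand. CCAAT stood in this window in 27 of 75 genes (36%), against 31.8% of all genes, and GGGCGG in 22 of 75 (29.3%), against 27.2%. The window of Cox6b1 held CCAAT at 2 places and no GGGCGG, and that of Cox6b2 held each at 1 place. Both lines run 5′ to 3′ on the minus strand of GRCm38.p6.
Cox6b1, chr7:30626165-30626364: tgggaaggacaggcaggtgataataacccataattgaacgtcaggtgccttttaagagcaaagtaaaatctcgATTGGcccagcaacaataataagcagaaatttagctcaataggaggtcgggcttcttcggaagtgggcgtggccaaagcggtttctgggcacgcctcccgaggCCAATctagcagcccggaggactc
Cox6b2, chr7:4753145-4753344: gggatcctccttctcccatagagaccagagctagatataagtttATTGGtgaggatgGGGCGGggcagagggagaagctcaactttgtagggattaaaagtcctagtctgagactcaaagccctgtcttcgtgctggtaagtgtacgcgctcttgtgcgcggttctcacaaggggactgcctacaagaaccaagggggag

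**Figure D5:**
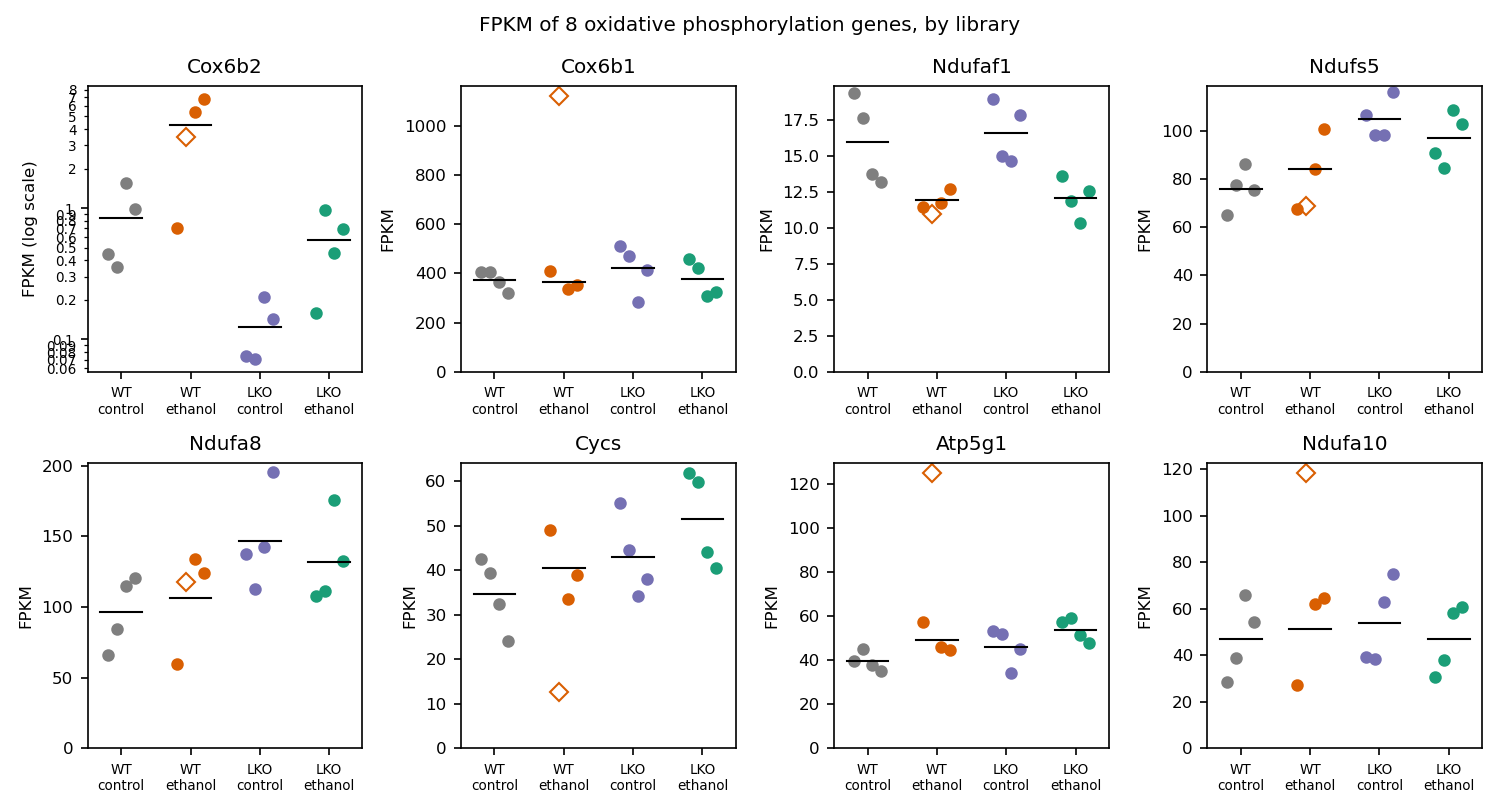
FPKM (y axes, log scale for Cox6b2 only) of 8 genes in each of the 16 libraries, with bars at the group means without WT ethanol library 2 (open diamond). Cox6b2 is highest in 3 of the 4 WT ethanol libraries, Ndufaf1 is lower in both ethanol groups than in the matching control groups, Ndufs5 is higher in LKO control than in WT control, and Ndufa10 splits between libraries 1 and 2 and libraries 3 and 4 in WT control and both LKO groups.

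The isoform sets of complex IV kept the order of liver in all 15 libraries. Cox6a1 ranged from 396 to 726 FPKM and the muscle isoform Cox6a2 from 0 to 1.68, Cox4i1 from 217 to 429 and Cox4i2 from 0 to 0.548, and Cox8a from 355 to 700 and the muscle isoform Cox8b from 0 to 0.454. Cox8c was listed at 0 in all 16 libraries. Cox7a2 ranged from 146 to 352 FPKM, Cox7a2l, known for joining complexes III and IV, from 60.2 to 115, and the muscle isoform Cox7a1 from 2.82 to 9.12. Of 6 striated muscle markers, 4 stayed under 1 FPKM in all 15 libraries, and the sum of all 6 ranged from 0.203 to 5.15 FPKM, with its highest value in WT ethanol library 4. Markers of brown and white fat summed to at most 0.475 FPKM.

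Ndufa4 is a subunit now placed in complex IV, and Ndufa4l2 is its paralogue known to be induced by low oxygen. Ndufa4 ranged from 393 to 716 FPKM over the 15 libraries. Ndufa4l2 measured 0.546, 0.917, 1.03 and 1.4 FPKM in WT control, 1.23, 2.74, 1.8 and 3.45 in WT ethanol, 0.778, 1.3, 1.84 and 1.7 in LKO control and 0.632, 0.79, 0.882 and 1.64 in LKO ethanol. WT ethanol library 1 fell within the WT control range and the other 3 lay above it, and the difference of 0.71 (SE 0.24) had a limma adjusted p of 0.0968. Of the stellate cell and fibroblast markers given above, Des was high in the same 3 libraries, while Dcn, Col3a1, Lrat and the sum of the 6 were at their lowest in library 2, and their part was not tested. The interaction of Ndufa4l2, -0.99 (SE 0.33), had a limma adjusted p of 0.927. In a replicate block by nearest title numbers, chosen after seeing the data, its ethanol difference in WT had a limma adjusted p of 0.0486. Without the pair of WT ethanol library 2 that block gave 0.63 (limma adjusted p = 0.0434). The labels state no pairing. Ndufa4l2 overlaps Shmt2 on the other strand, which averaged 70.3 FPKM, and whether the counting used strand is not given in the sources used here.

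The c subunit of complex V is encoded by 3 genes that yield the same mature protein. Over the 15 libraries other than WT ethanol library 2, Atp5g3 ranged from 284 to 442 FPKM, Atp5g2 from 71.4 to 137 and Atp5g1 from 34.4 to 59.3, without overlap between neighbours in that order. In library 2 the order did not hold, with Atp5g3 at 131, Atp5g1 at 125 and Atp5g2 at 25.9 FPKM. Atp5g1 measured 39.7, 44.9, 38.1 and 35.1 FPKM in WT control and 57.2, 125, 45.8 and 44.9 in WT ethanol. It measured 53.4, 51.8, 34.4 and 45.0 FPKM in LKO control and 57.3, 59.3, 51.4 and 47.8 in LKO ethanol. Its ethanol difference averaged over the genotypes was 0.44 (SE 0.21, limma adjusted p = 0.231), and without WT ethanol library 2 it was 0.27 (SE 0.12, limma adjusted p = 0.128).

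Among the assembly factors, Ndufaf1, an early factor in building the membrane arm of complex I, measured 19.4, 17.7, 13.7 and 13.2 FPKM in WT control and 11.5, 11, 11.8 and 12.7 in WT ethanol. In LKO it measured 19, 15, 14.7 and 17.9 FPKM on the control diet and 13.6, 11.9, 10.3 and 12.6 on ethanol. The ethanol libraries lay below the control libraries without overlap in both genotypes. The difference was -0.40 (SE 0.20, limma adjusted p = 0.278) in WT and -0.43 (SE 0.20, limma adjusted p = 0.54) in LKO. Averaged over both genotypes it was -0.41 (SE 0.14, limma adjusted p = 0.0833). Without WT ethanol library 2 the average was -0.40 (SE 0.11, limma adjusted p = 0.0227), where 20.5% of all genes were called.

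Ndufaf5, a methyltransferase that acts on a complex I subunit, went the other way. It measured 3.76, 3.81, 2.74 and 2.68 FPKM in WT control, 3.73, 5.9, 4.01 and 4.85 in WT ethanol, 2.64, 2.91, 2.5 and 2.3 in LKO control and 3.15, 3.79, 2.49 and 2.93 in LKO ethanol. The groups overlapped in each comparison between neighbouring groups, and the ethanol average of 0.29 (SE 0.13) had a limma adjusted p of 0.196. Ndufaf4, another early factor, had a genotype difference of 0.98 on ethanol (SE 0.46, limma adjusted p = 0.417) that was 0.30 (SE 0.21, limma adjusted p = 0.434) without WT ethanol library 2, and its FPKM in WT ethanol library 2 was 0.0726 times the mean of the other 3.

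Ndufs5, an accessory subunit of complex I, measured 64.9, 77.6, 86.3 and 75.3 FPKM in WT control and 107, 98.3, 98.5 and 116 in LKO control. All LKO control libraries lay above all WT control libraries. On ethanol it measured 67.6, 68.7, 84.1 and 101 FPKM in WT and 90.9, 84.8, 109 and 103 in LKO, which overlapped. The difference was 0.46 on the control diet (SE 0.22, unadjusted p = 0.0515 and adjusted p = 1 by limma), and 0.37 averaged over the diets (SE 0.16, limma adjusted p = 0.428).

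Ndufa8, an accessory subunit with twin CX9C motifs, and Cycs had positive genotype differences that did not pass the test. Ndufa8 measured 65.7, 84.7, 115 and 120 FPKM in WT control and 137, 113, 142 and 195 in LKO control, which overlap because of LKO library 2. On ethanol it measured 59.7, 117, 134 and 124 FPKM in WT and 107, 111, 176 and 133 in LKO. Cycs measured 42.4, 39.5, 32.5 and 24.0 FPKM in WT control, 49.0, 12.6, 33.6 and 39.0 in WT ethanol, 55.2, 44.6, 34.3 and 38.1 in LKO control and 61.8, 59.8, 44.1 and 40.6 in LKO ethanol. Averaged over the diets, LKO minus WT was 0.46 (SE 0.22, limma adjusted p = 0.478) for Ndufa8 and 0.52 (SE 0.25, limma adjusted p = 0.476) for Cycs. Without WT ethanol library 2 the value for Cycs was 0.32 (SE 0.16, limma adjusted p = 0.235).

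A fit without WT ethanol library 2 that also held the contrast of libraries 1 and 2 with 3 and 4 as a term called more genes. That contrast was read from these data and is no labelled batch. Averaged over genotypes, 8 of 89 genes were then called for ethanol, against 32.6% of all genes. Atp5g1 (0.30), Ndufaf5 (0.26) and Cycs (0.29) rose, Cox6b2 (0.83), with the limit above, was called as higher, and Sdha (-0.29), Ndufa6 (-0.26), Ndufs8 (-0.31) and Ndufaf1 (-0.39) fell. Averaged over diets, LKO differed in 8 of 89 genes, against 11.1% of all genes. Ndufa8 (0.54), Ndufaf3 (0.40), Ndufb10 (0.39), Cox7a2 (0.38), Ndufs5 (0.36) and Cycs (0.28) were higher in LKO, and Ndufaf5 (-0.31) was lower. Cox6b2 (-1.03) was also called as lower, but it was tested only through WT libraries where it is high. All of these but Cox6b2 differed by less than 1.5-fold. In the single comparisons of that fit the counts were 3 of 89 genes for ethanol in WT, against 19.7%, 1 for ethanol in LKO, against 10.7%, 0 between genotypes on the control diet, against 0.0797%, and 1 on ethanol, against 1.58%.

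The 12 tested messenger RNAs of the mitochondrial genome encode the core subunits that pair with these nuclear genes. None was called by limma in any of the 7 contrasts, in each of which 0 or 1 of the 12 had an unadjusted p under 0.05, against 3.20 to 21.6% of all genes. In the fit without WT ethanol library 2 that held libraries 1 and 2 against 3 and 4 as a term, 1 of the 12 fell with ethanol in WT, against 19.7% of all genes, 1 rose in LKO, against 10.7%, and 1 rose averaged over genotypes, against 32.6%. Their median difference was 0.14 for ethanol in WT, and -0.14 without WT ethanol library 2. For ethanol in LKO it was 0.16. Without that library it was 0.26 for LKO against WT on ethanol (0.02 to 0.43 over the genes). For the interaction it was then 0.33 (0.17 to 0.665), and none was called in these 2 contrasts. Over all 13 messenger RNAs of the mitochondrial genome, summed FPKM was 2.47 to 4.26 times that of the 95 nuclear genes in the 15 libraries. In WT ethanol library 2 it was 8.83 times. The sum was uneven, as mt-Co1 measured 9014 to 18611 FPKM in the 15 libraries, mt-Co2 86.3 to 205 and mt-Atp6 54.9 to 146. It thus rested on part of these genes, and the ratio is no measure of all mitochondrial against nuclear messenger RNA.

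Of 37 tested assembly factors outside the rule, 0 rose and 1 fell with ethanol averaged over genotypes, where 7.78% of all genes were called. With WT ethanol library 2 left out, 2 rose and 1 fell, against 20.5% of all genes, and with the side term as well 6 rose and 2 fell, against 32.6%. The gene that fell with all 16 libraries was Dmac2, a complex I assembly factor, at -0.96 (SE 0.23, limma adjusted p = 0.015), and at -0.83 (SE 0.19, limma adjusted p = 0.00736) without WT ethanol library 2. It measured 10.6, 15.8, 14.8 and 16.7 FPKM in LKO control and 7.53, 4.53, 6.4 and 8.95 in LKO ethanol, which do not overlap. In WT it measured 12.8, 11.3, 16 and 22 FPKM on the control diet and 5.34, 3.94, 12.1 and 11.2 on ethanol, with a slight overlap.

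Of 16 tested regulators of mitochondrial biogenesis, 0 rose and 1, Sirt3, fell with ethanol averaged over genotypes, against 7.78% of all genes. When WT ethanol library 2 was left out, 3 rose and 1 fell, against 20.5%, and with the side term as well 4 rose and 3 fell, against 32.6%. Sirt3 encodes a deacetylase of the mitochondrial matrix whose known targets include subunits of the complexes. It measured 57.0, 56.9, 53.4 and 56.6 FPKM in WT control and 22.4, 4.22, 37.0 and 35.8 in WT ethanol, and 59.8, 65.9, 59.3 and 51.3 in LKO control and 37.6, 24.0, 27.7 and 37.9 in LKO ethanol. Ethanol and control libraries did not overlap in either genotype. The averaged difference was -1.19 (SE 0.32, limma adjusted p = 0.0306), and -0.86 (SE 0.14, limma adjusted p = 0.000783) without WT ethanol library 2.

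With all 16 libraries, 0 of 18 genes of the tricarboxylic acid cycle and 0 of 17 genes of other electron entry routes were called by limma in any of the 7 contrasts, with 0 to 3 of 18 and 0 or 1 of 17 at an unadjusted p under 0.05 in each. Of all genes, 0 to 7.78% were called in these contrasts and 3.20 to 21.6% had such an unadjusted p. After WT ethanol library 2 was left out, 4 of the 18 rose with ethanol averaged over genotypes and none fell. Of the 17 genes of other entry routes 1 rose and 1 fell, where 20.5% of all genes were called. In WT, 1 of the 18 rose with ethanol in that fit, against 9.48% of all genes. Averaged over diets, 1 of the 18 and 1 of the 17 were higher in LKO, against 1.07%. With the term for libraries 1 and 2 against 3 and 4 added, 5 of the 18 rose with ethanol in WT, where 19.7% of all genes were called, and 5 rose averaged over genotypes, against 32.6%. Averaged over diets, 3 of the 18 were then higher in LKO, against 11.1%. Of the 17 genes of other entry routes, 1 rose and 1 fell in WT, 2 rose and 2 fell averaged over genotypes, and 1 was higher and 1 lower in LKO averaged over diets.

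Of the 95 genes, 30 overlapped another gene of the table and 28 of these had one on the other strand. Ndufb2, the untested complex I gene, overlaps Braf on the other strand and ranged from 0.245 to 0.933 FPKM in the 15 libraries. All 6 hepatocyte markers were present in every library, and their sum lay between 41595 and 71876 FPKM. In WT ethanol library 2, 5 of the 6 lay outside the range of the other 15 libraries. Cps1, the first enzyme of the urea cycle, measured 36.5 FPKM there against 339 to 1188, Hnf4a 22.2 against 94.0 to 204, and Alb 23000 against 27582 to 60924. Apoa1 (34502 against 4587 to 10826) and Serpina1c (497 against 76.6 to 277) lay above.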

How the data were processed

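RNA sequencing of 16 liver libraries (4 groups of 4) was used. The authors deposited 1 table of FPKM values per gene and library. Per the submitters' processing notes, the tools were fastp, STAR 2.6.1, HTSeq and DESeq2 with the mm10 build; their settings, including strand, were not given in the sources used here. FPKM steps gave whole reads and total depth per library, so low genes such as Cox6b2 have wide counting error.

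Groups came from the sample labels. The genes and all lists were chosen with earlier results of these data known. Genes with at least 1 FPKM in at least 4 libraries (11298) were fitted as log2(FPKM + 1) with limma 3.58.1 in R 4.3.3 (group means, trended variance, Benjamini-Hochberg adjustment over all 11298 genes, threshold 0.05). A pseudocount of 1 understates changes of low genes. Comparisons that use the same group share its libraries. Position and type came from GENCODE M21 (GRCm38), promoters from RefSeq. The fit was tested on simulated data.

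Genes named are the catalytic and redox subunits, the isoform sets, every gene called, the 2 largest rises and falls per contrast, the highest and lowest gene per complex, and at most 3 genes with the smallest p from each outside list. Genes called only in other fits, genes whose groups did not overlap, and Ndufa10 and Uqcrb were named after their values were seen. Alternatives were pseudocount 0.1, no filter, 3 other scalings, array weights, the side term, leaving out each library, and, chosen after seeing the data, voom on whole reads, a replicate block by nearest title numbers and quantile normalization without WT ethanol library 2. Results on some genes are not reported here.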

Additional observations from a re-analysis of the deposited data

Results flagged for a closer look

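In each group of 4 libraries, a value was marked when its gap to the nearest other library took up more of the group's range than Dixon's 95% critical value for 4 samples allows. Chance marks about 1 in 20 groups, and 21 of 228 groups tested were marked, 14 of them for WT ethanol library 2. Within WT ethanol, that library was the highest for Ndufa2 (3198 FPKM), Atp5e (1760 FPKM), Uqcr11 (1126 FPKM), Cox6b1 (1121 FPKM), Ndufv1 (469 FPKM), Ndufs7 (269 FPKM), Ndufs3 (180.4 FPKM), Atp5g1 (125 FPKM) and Cox4i2 (3.86 FPKM). It was the lowest for Uqcrfs1, the Rieske protein of complex III (26.0 FPKM), and Ndufs1, the largest subunit of complex I (10.6 FPKM). Its summed FPKM was the highest for complex I (10077), complex V (8052) and all 95 genes (27436).

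The other marked values were spread over 6 libraries. WT ethanol library 4 was the highest of its group for the muscle isoforms Cox6a2 (1.68 FPKM) and Cox8b (0.416 FPKM). WT ethanol library 3 had the lowest sum of the complex I assembly factors (92.9 FPKM), and WT control library 2 the highest Sdhb (193 FPKM). LKO control library 4 had the highest Cox6a1 (726 FPKM). LKO ethanol library 1 had the lowest Cox4i1 (241 FPKM), and LKO ethanol library 3 the lowest Cyc1 (181 FPKM).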

How the results depend on the processing

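Across 28 alternatives (26 between genotypes), the number of the 89 genes called stayed within 1.5 times the reported count in 142 recomputed counts and not in 48. Shares of all genes called in the same fit stand in brackets. For ethanol in WT it was 0 with pseudocount 0.1 (3.41%), without the filter (1.16%), with equal sums (3.39%) and with voom (3.01%), 7 with array weights (38.4%) and 3 with the side term without WT ethanol library 2 (19.7%), and 0 to 2 when 1 library was left out (1.29 to 9.48%). For ethanol in LKO it was 1 with that side term (10.7%) and 0 otherwise (0.0531 to 7.69%). Between genotypes on the control diet it was 0 in every alternative run (0.0041 to 2.3%). Between genotypes on ethanol it was 3 with array weights (30.7%), 1 with the side term (1.58%), and 0 to 2 when 1 library was left out (0.00885 to 3.43%). The interaction gave 1 with array weights (4.48%). Averaged over genotypes, ethanol gave 0 with equal sums (6.2%) and voom (7.13%), 8 with array weights (36.7%), 8 with the side term (32.6%), 2 with quantile normalization without WT ethanol library 2 (20%), and 0 to 2 when 1 library was left out (4.59 to 20.5%). Averaged over diets, genotype gave 6 with array weights (34.1%), 8 with the side term (11.1%), and 0 to 1 when 1 library was left out (0.0708 to 1.07%). Array weights gave WT ethanol library 2 a weight of 0.0418. Of the named differences, Sdhd for ethanol in WT turned to 0.053 with the side term and to 0.015 with quantile normalization without that library, and its interaction to -0.070 with the side term. Ndufa2 turned to -0.18 for ethanol in WT and to 0.0067 for the interaction with array weights. The cause was not tested. The Cox6b2 call was lost in 17 of 28 alternatives in WT and in 15 of 28 averaged over genotypes. Its direction was kept in all of them. As the gene passed the filter only through WT libraries where it is high, that is no support for a rise. The median over the 89 genes ranged from -0.06 to 0.17 for ethanol in WT, from -0.15 to 0.02 in LKO, from -0.003 to 0.22 between genotypes on the control diet and from -0.15 to 0.15 on ethanol. The labels state no pairing, but sample titles hold numbers, consecutive in 5 of the 8 pairs of a control and an ethanol library of 1 genotype with the nearest numbers. A replicate block on these pairs gave 2 genes for ethanol in WT, Cox6b2 and Ndufa4l2 (limma adjusted p = 0.0486; 3.78% of all genes), 0 in LKO (0.0531%) and for the interaction (0%), and 1 averaged over genotypes (8.34%). Without the pair of WT ethanol library 2 the replicate block gave 2, 0, 0 and 4 (Cox6b2, Ndufaf1, Atp5g1 and Ndufs8), against 12.3%, 6.99%, 0% and 25.9% of all genes, with Sdhd at 0.057 for ethanol in WT and -0.074 for the interaction. Deviations correlated over 0.1 in 7 of 8 pairs and at -0.063 in the pair of that library, and 4 of 8 control libraries correlated best with their own partner. Genotype contrasts could not be fitted with this block. Voom, the block and quantile normalization without that library were chosen after seeing the data. Counting error is widest for Cox6b2, at 1 to 79 reads per library.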
